A study of Mus musculus with 6 samples.

Results

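The enzymes of the tricarboxylic acid (TCA) cycle, of pyruvate entry into it and of the reactions that link it to the cytosol were followed in polysomal RNA, taken from the fractions of a lysate where mRNAs are loaded with multiple ribosomes. The 30 genes were chosen by name from the pathway, and all 30 had a row among the 19233 genes of the deposited table. The cells were RAW264.7, a macrophage-like mouse line, labelled as M2, which stands for alternative activation. They had received 500 nM BMH-21, a compound that blocks RNA polymerase I, for 24 h beginning 24 h after polarization (3 libraries), or the DMSO vehicle (3 libraries). The labels also speak of bone-marrow-derived macrophages and of polarization by IL-4 (20 ng/ml) or by LPS with interferon gamma (each 50 ng/ml), so the polarizing agent of the line is not stated for it alone. The line is a single established line, and the labels do not say that libraries came from separate cultures.

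The TCA cycle is a ring of mitochondrial reactions that oxidises acetyl-CoA and hands electrons to the respiratory chain. Pyruvate reaches it through a carrier in the inner membrane and is turned into acetyl-CoA by the pyruvate dehydrogenase complex or into oxaloacetate by pyruvate carboxylase. Several steps have a relative in the cytosol (isocitrate dehydrogenase, malate dehydrogenase, malic enzyme), which serves shuttles and NADPH supply, and citrate exported to the cytosol is cleaved there to acetyl-CoA. Macrophages are known to reshape the cycle when they are activated, for example by drawing aconitate into itaconate.

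Values are FPKM, read fragments per length of transcript and size of library. They are shares of a library, so comparisons between samples rest on scaling, as given below. Low values implied 18770000 to 22560000 reads per BMH-21 library and 21610000 to 24070000 per DMSO library. All 10 macrophage markers examined reached 1 FPKM, and their summed level was 18659 to 19868 FPKM in BMH-21 libraries and 10840 to 11239 FPKM in DMSO libraries. A sum weighs abundant genes most, and single markers differed in direction. In log2 of FPKM + 1 (BMH-21 minus DMSO), Adgre1 changed by −0.82 and Csf1r by −0.19. Cd68 changed by 0.14, Aif1 by 0.35 and Cd14 by 0.58. The remaining markers are not given singly, so which markers raised the sum is not shown. Markers of fibroblasts, lymphocytes and neutrophils that had a row stayed under 1 FPKM everywhere. Epithelial markers did not: the summed level of 6 of them, led by the keratins Krt18 and Krt8, was 10.9 to 14.2 FPKM in the BMH-21 libraries, against 0, 0.088 and 9.73 FPKM in DMSO replicates 1, 2 and 3. Of these 6, Epcam, Krt19, Cdh1 and Krt14 stayed under 1 FPKM in every library. DMSO replicate 3, which carried them, lay nearer to the other DMSO libraries than to the BMH-21 libraries in all 27 enzyme genes called below. These genes were called with that library among the controls, so their selection largely fixed this outcome. Whether the RNA that carries these markers shaped the enzyme values was not tested. With that library as the sole DMSO control, 24 enzyme genes were again called lower and 3 higher.

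With BMH-21, most of the enzyme genes fell. Of the 29 that reached 1 FPKM in at least 3 libraries, limma called 24 lower and 3 higher in BMH-21 (adjusted p under 0.05, Benjamini-Hochberg over all 9748 tested genes). The median change was −0.65 (BMH-21 minus DMSO, in log2 of FPKM + 1), against −0.23 over all tested genes. The background was wide: 78.3% of all tested genes were called, 58.4% lower and 19.9% higher. Among the enzyme genes the shares were 82.8% lower and 10.3% higher. A fall of at least 1 on the log2 scale was called in 7 of the 29, against 5.24% of all tested genes. The BMH-21 and DMSO libraries did not overlap in 25 genes that were lower and 3 that were higher, and over all tested genes this held for 59.5% and 20.3%, or 79.8% in either direction. Scaling shifted the all-gene median by more than 0.1, to −0.02 by median-ratio scaling, to 0.03 by scaling to the upper quartile and to 0.00 by quantile normalization. The enzyme genes then split into 5 higher and 22 lower, 5 and 21, and 4 and 23 under these scalings, while all tested genes split into 3477 and 3747, 3873 and 3294, and 3517 and 3498. Relative to the median of all genes, the median enzyme gene lay at −0.42, and between −0.47 and −0.38 under the 4 other scalings. In polysome RNA from bulk cells, less mRNA per cell, less of it on polysomes and fewer cells of a type cannot be told apart.

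**Figure D1:**
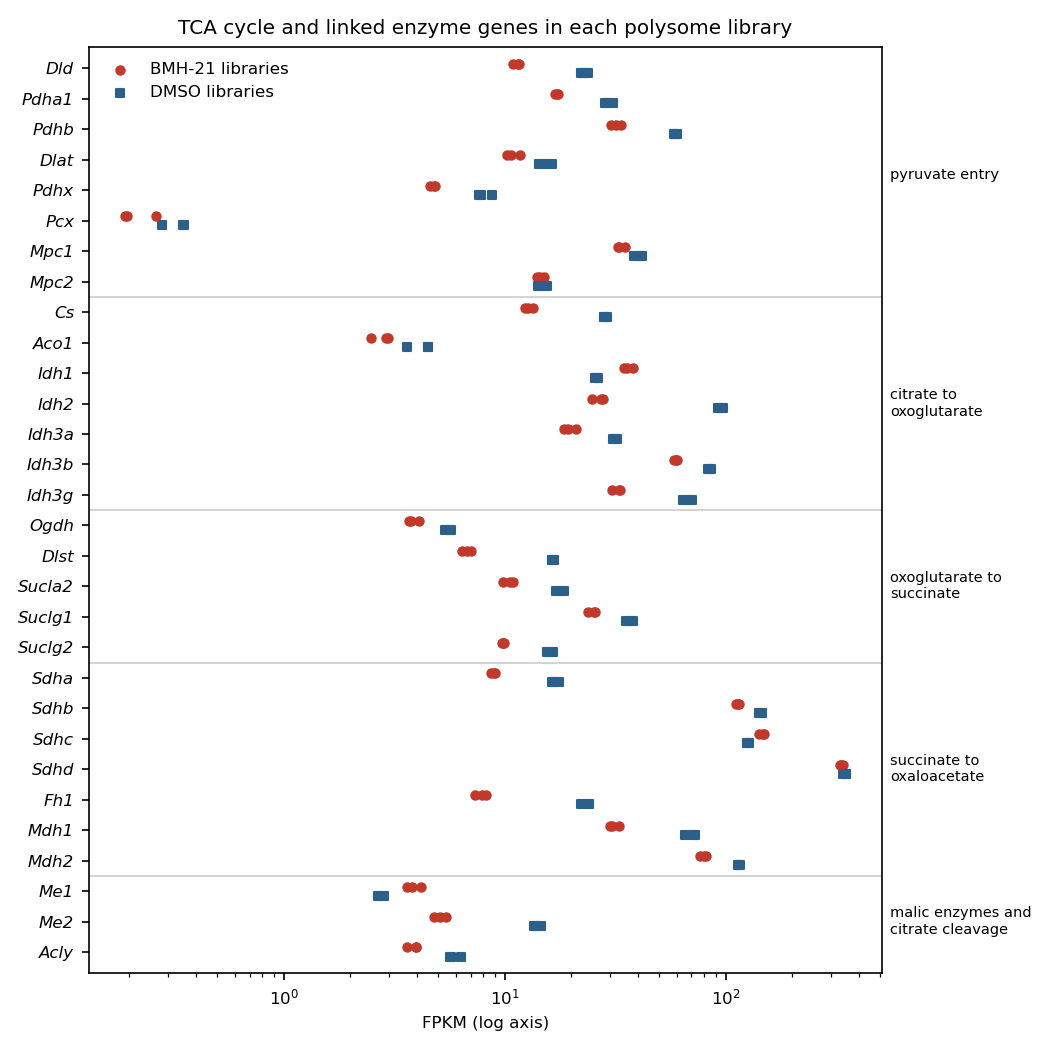
FPKM (log axis) of the 30 enzyme genes in the 3 BMH-21 libraries (circles) and the 3 DMSO libraries (squares), 1 point per library, grouped by step of the pathway. Idh2, Fh1 and Me2 show the widest gaps with BMH-21 lower, while Idh1 and Me1 lie higher in BMH-21 and Mpc2 overlaps.

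The sharpest contrast was between the NADP-dependent isocitrate dehydrogenases, which convert isocitrate to oxoglutarate in different compartments. Idh2 (chromosome 7, 80094846 to 80115392, GRCm38), the mitochondrial enzyme, had 27.3, 24.9 and 27.8 FPKM in BMH-21 libraries and 92.1, 96.3 and 96.8 FPKM in DMSO libraries. Its groups were far apart, with a log2 fold change (± SE) of −1.80 ± 0.05 (adjusted p in limma = 1.47e-09), the largest fall among the 29 tested enzyme genes. Idh1 (chromosome 1, 65158616 to 65186500), the enzyme of the cytosol and peroxisomes, had 35.6, 38.1 and 34.8 FPKM in BMH-21 libraries and 25.5, 26.3 and 26.2 FPKM in DMSO libraries. It was higher in every BMH-21 library, with a log2 fold change (± SE) of 0.46 ± 0.04 (adjusted p in limma = 5.33e-06). The mRNA of Idh2 was thus the more abundant of the pair in DMSO and the less abundant in BMH-21. Within libraries the ratio of Idh2 to Idh1 was 0.767, 0.655 and 0.798 in BMH-21, against 3.61, 3.66 and 3.69 in DMSO. A ratio inside a library does not depend on library scaling, and this one was 4.96-fold lower in BMH-21 (difference −2.31 ± 0.09 on the log2 scale, SE, n = 3 each). Because the pair moved apart, the stretches before the annotated starts of both genes are shown with that of Fh1, the gene with the next largest fall, each being 250 bases read 5′ to 3′ on the gene's strand (RefSeq, GRCm38.p6), with CCAAT boxes in capitals on either strand. The RefSeq starts of Idh2 and Idh1 lie inside the longer GENCODE genes.
Idh2 (chr7:80115351-80115600, minus strand): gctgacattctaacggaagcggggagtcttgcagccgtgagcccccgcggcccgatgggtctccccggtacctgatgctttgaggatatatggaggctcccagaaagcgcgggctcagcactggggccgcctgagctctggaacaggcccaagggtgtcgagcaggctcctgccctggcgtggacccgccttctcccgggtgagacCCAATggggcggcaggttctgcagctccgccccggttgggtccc
Idh1 (chr1:65186480-65186729, minus strand): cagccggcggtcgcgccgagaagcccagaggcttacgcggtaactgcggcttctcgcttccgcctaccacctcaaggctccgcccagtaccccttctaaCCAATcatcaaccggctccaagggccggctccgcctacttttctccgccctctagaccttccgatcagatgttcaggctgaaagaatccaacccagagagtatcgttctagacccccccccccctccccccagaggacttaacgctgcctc
Fh1 (chr1:175625636-175625885, minus strand): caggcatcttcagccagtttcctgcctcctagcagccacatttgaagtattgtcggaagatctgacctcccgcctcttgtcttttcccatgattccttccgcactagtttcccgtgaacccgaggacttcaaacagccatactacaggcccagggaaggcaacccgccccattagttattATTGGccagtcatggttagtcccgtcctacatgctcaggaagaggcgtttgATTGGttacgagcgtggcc

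The CCAAT match of Idh2 began 44 bases before its start and that of Idh1 151 bases before, and Fh1 had matches at 70 and 19 bases. Across all 32851 promoter windows of 300 bases (250 before and 50 after a start), 37.4% held a CCAAT box on either strand, as did those of 18 of the 27 enzyme genes with a window. The letters GCGCANGCG, a motif of the nuclear respiratory factor NRF1, were in 6.25% of all windows and in those of 5 enzyme genes (Ogdh, Dld, Sucla2, Sdha and Sdhd). The letters CCGGAAG, which the factor GABP binds, were in 8.86% of all windows and in those of 6 enzyme genes (Idh3b, Idh3g, Dlst, Sdhb, Sdhd and Mpc1). Each motif was searched on both strands, and matches of different motifs overlapped in 1 enzyme gene, Pdhb. Sdha, which fell, and Sdhd, which did not pass, both held the NRF1 letters.

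The malic enzymes, which turn malate into pyruvate, moved like the isocitrate dehydrogenases. Me2, the mitochondrial form, had 4.79, 5.07 and 5.44 FPKM in BMH-21 libraries and 13.5, 14.5 and 13.8 FPKM in DMSO libraries. The groups did not overlap, and it fell by 1.29 on the log2 scale (limma adjusted p = 1.67e-08). Me1 (chromosome 9, 86581371 to 86695953), the cytosolic NADPH-forming enzyme, had 4.19, 3.79 and 3.60 FPKM in BMH-21 libraries and 2.84, 2.70 and 2.66 FPKM in DMSO libraries. It was higher in every BMH-21 library by a small amount, with a log2 fold change (± SE) of 0.38 ± 0.06 (adjusted p in limma = 0.00019). Exons of Me1 overlap those of A330041J22Rik on the opposite strand, and the counting is not stated to use strand. The ratio of Me2 to Me1 averaged 1.33 ± 0.19 in BMH-21 and 5.11 ± 0.32 in DMSO (SD, n = 3), which is 3.86-fold lower in BMH-21. Me1 is a known target of the antioxidant regulator NRF2, and its promoter window held the antioxidant response element letters TGACNNNGC beginning 6 bases before the start, shown here in capitals within 30 bases (RefSeq, GRCm38.p6). The match runs across the start, and the 30 bases lie on both sides of it. These bases lie inside the longer GENCODE gene.
Me1 (chr9:86695901-86695930, minus strand): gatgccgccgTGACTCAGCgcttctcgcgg

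Those letters were in 12.4% of all promoter windows and in those of 7 enzyme genes, of which Idh3g, Dlst, Sucla2, Mdh1, Pdhb and Mpc1 were called lower and Me1 higher.

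The malate dehydrogenases, which interconvert malate and oxaloacetate on either side of the mitochondrial membrane, moved the other way: both fell, and the cytosolic form fell more. Mdh1 had 32.9, 30.5 and 29.8 FPKM in BMH-21 libraries and 65.4, 72.5 and 70.9 FPKM in DMSO libraries, a fall of 1.14 on the log2 scale (limma adjusted p = 3.27e-08). Mdh2, the mitochondrial form, had 81.8, 76.7 and 79.9 FPKM in BMH-21 libraries and 114, 115 and 116 FPKM in DMSO libraries, a fall of 0.53 (limma adjusted p = 7.31e-07). The ratio of Mdh2 to Mdh1 was accordingly higher in BMH-21, at 2.56 ± 0.10 against 1.66 ± 0.08 in DMSO (SD, n = 3). Exons of Mdh1 overlap those of Wdpcp on the opposite strand, with the same limit.

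Aco1, the cytosolic enzyme that isomerises citrate and doubles as an iron-regulatory protein, had 2.96, 2.49 and 2.89 FPKM in BMH-21 libraries and 4.49, 4.52 and 3.62 FPKM in DMSO libraries. It was lower in every BMH-21 library (log2 fold change −0.46, limma adjusted p = 0.000407), but with quantile normalization (−0.14) it did not pass.

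Citrate is made from acetyl-CoA and oxaloacetate by citrate synthase in mitochondria and cleaved in the cytosol by ATP-citrate lyase. Cs, citrate synthase, had 12.8, 13.4 and 12.4 FPKM in BMH-21 libraries and 28.0, 28.2 and 29.0 FPKM in DMSO libraries, and fell by 1.09 on the log2 scale (limma adjusted p = 1.23e-08). Acly, the lyase, had 3.97, 3.61 and 3.95 FPKM in BMH-21 libraries and 6.33, 5.63 and 5.73 FPKM in DMSO libraries, and fell by 0.51 (limma adjusted p = 1.89e-05). The ratio of Cs to Acly was 3.35 ± 0.31 in BMH-21 and 4.83 ± 0.36 in DMSO (SD, n = 3). Both genes fell in every BMH-21 library, Cs by more.

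**Figure D2:**
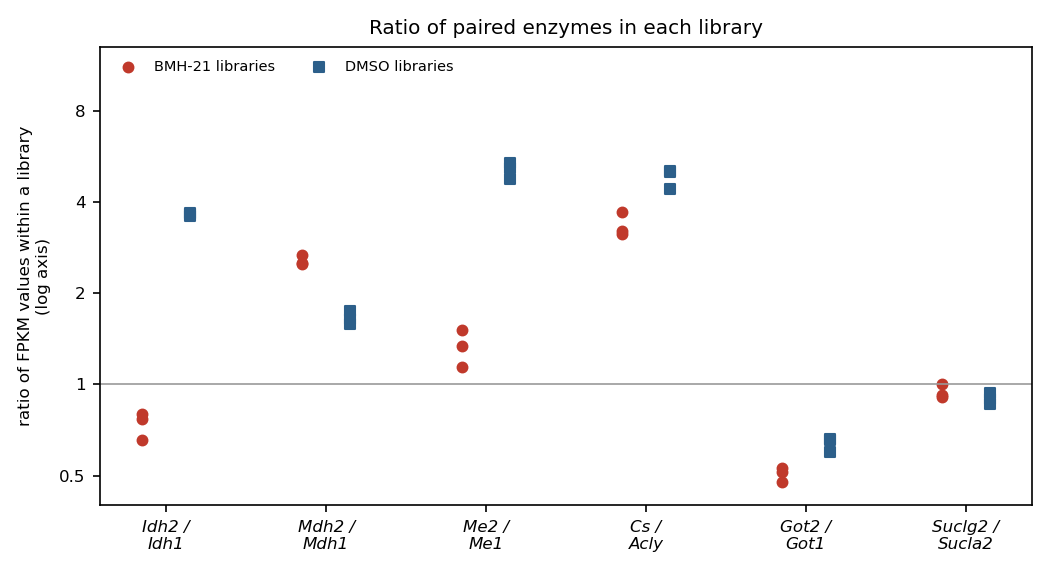
Ratio of the FPKM values of paired enzymes within each library (log axis), with BMH-21 libraries as circles on the left of each pair and DMSO libraries as squares on the right. The Idh2 to Idh1 ratio lies between 0.655 and 0.798 in BMH-21 and between 3.61 and 3.69 in DMSO, the Mdh2 to Mdh1 ratio is higher in BMH-21, and the groups overlap for Suclg2 to Sucla2.

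In all, 6 pairs were compared. In addition to those already given, the mitochondrial aspartate aminotransferase Got2 relative to the cytosolic Got1, partners of the malate-aspartate shuttle, had a ratio of 0.507 ± 0.027 in BMH-21 and 0.637 ± 0.035 in DMSO (SD, n = 3). The groups of libraries did not overlap in 5 of the 6 pairs. For each of these 5 the 2-sided exact permutation p was 0.10, the smallest that 3 against 3 libraries allow, and 0.12 after Benjamini-Hochberg adjustment over the 6 pairs. The exception was Suclg2 to Sucla2, the GTP-forming and ATP-forming subunits of succinyl-CoA ligase, with a log2 difference of 0.07 ± 0.06 (SE, n = 3, exact permutation p = 0.40). Mitochondrial members were lower relative to their cytosolic partner in Idh2, Me2, Cs and Got2, and higher in Mdh2.

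Among genes of pyruvate entry, the polysomal mRNAs of the dehydrogenase complex fell, while those of the carrier changed less. The direction at the carrier rested on scaling, and pyruvate entry itself was not measured. All 5 genes of the pyruvate dehydrogenase complex were called lower, with log2 fold changes from −0.96 for Dld to −0.45 for Dlat. Pdha1, the catalytic alpha subunit, had 17.2, 17.4 and 16.9 FPKM in BMH-21 libraries and 28.5, 31.0 and 29.5 FPKM in DMSO libraries. Pdhb, its beta partner, had 30.2, 33.7 and 31.9 FPKM in BMH-21 libraries and 60.1, 58.1 and 58.7 FPKM in DMSO libraries. In both genes the groups were clear of each other, with falls of 0.75 and 0.87 on the log2 scale (limma adjusted p = 1.40e-07 and 8.33e-08). Dlat, the acetyltransferase core, averaged 10.9 ± 0.76 FPKM in BMH-21 and 15.3 ± 1.0 FPKM in DMSO (SD, n = 3), a call lost with upper-quartile scaling (log2 fold change −0.16). Pdhx, the subunit that anchors Dld in the complex, averaged 4.75 ± 0.12 FPKM in BMH-21 and 8.08 ± 0.62 FPKM in DMSO. Dld, the dihydrolipoamide dehydrogenase shared with the oxoglutarate, branched-chain and glycine complexes, averaged 11.3 ± 0.40 FPKM in BMH-21 and 22.9 ± 0.87 FPKM in DMSO. Exons of Pdha1 overlap Map3k15 on the opposite strand.

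The mitochondrial pyruvate carrier is built from Mpc1 and Mpc2. Mpc1 had 32.7, 35.1 and 32.9 FPKM in BMH-21 libraries and 40.3, 38.4 and 41.8 FPKM in DMSO libraries, and was called lower (log2 fold change −0.25, limma adjusted p = 0.000573). Under median-ratio scaling the call ended (−0.00), and the sign turned with upper-quartile scaling (0.060, adjusted p = 0.31). Exons of Mpc1 overlap 4930506C21Rik on the opposite strand. Mpc2 had 14.1, 15.1 and 14.5 FPKM in BMH-21 libraries and 15.6, 14.1 and 14.6 FPKM in DMSO libraries. These overlapped, and the difference of −0.02 did not pass (limma adjusted p = 0.71). Mpc2 was called higher with median-ratio scaling (0.22), upper-quartile scaling (0.28) and quantile normalization (0.20), and lower with equal column totals (−0.13). Pcx, pyruvate carboxylase, was under the filter, with 0.19 to 0.26 FPKM in BMH-21 libraries and 0.28 to 0.35 FPKM in DMSO libraries. It was the lowest of the 30 genes in both groups, and the groups did not overlap.

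The NAD-dependent isocitrate dehydrogenase of the cycle, made of Idh3a, Idh3b and Idh3g, fell in all its subunits. Idh3g, a regulatory subunit, had 32.9, 30.7 and 33.3 FPKM in BMH-21 libraries and 63.8, 67.1 and 70.4 FPKM in DMSO libraries (log2 fold change −1.03, limma adjusted p = 4.06e-08). Idh3a, the catalytic subunit, averaged 19.6 ± 1.2 FPKM in BMH-21 and 31.8 ± 0.62 FPKM in DMSO (SD, n = 3). Idh3b averaged 59.3 ± 0.75 FPKM in BMH-21 and 84.3 ± 1.5 FPKM in DMSO, with the limit that its exons overlap Nop56 on the opposite strand. The groups did not overlap in any of the 3 subunits.

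From oxoglutarate to succinate all 5 genes were called lower. Dlst, the succinyltransferase core of the oxoglutarate dehydrogenase complex, had 7.03, 6.73 and 6.41 FPKM in BMH-21 libraries and 16.4, 16.6 and 16.3 FPKM in DMSO libraries (log2 fold change −1.18, limma adjusted p = 1.10e-08). Ogdh, the oxoglutarate-oxidising subunit, had 4.11, 3.70 and 3.78 FPKM in BMH-21 libraries and 5.59, 5.38 and 5.69 FPKM in DMSO libraries (log2 fold change −0.43, limma adjusted p = 3.04e-05). Both were lower in every BMH-21 library, and the Ogdh call was lost with quantile normalization (−0.10). Succinyl-CoA ligase, which makes GTP or ATP, moved as a block. Its shared subunit Suclg1 averaged 24.9 ± 1.0 FPKM in BMH-21 and 36.8 ± 1.3 FPKM in DMSO, Suclg2 averaged 9.82 ± 0.06 and 16.01 ± 0.54 FPKM, and Sucla2 averaged 10.4 ± 0.55 and 17.8 ± 0.78 FPKM (SD, n = 3, BMH-21 and DMSO in each case). Their log2 fold changes lay between −0.72 and −0.55, the narrowest spread among the 6 complexes and carriers followed (0.17).

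Succinate dehydrogenase, which is also complex II of the respiratory chain, did not move as a block. Sdha, the flavoprotein that oxidises succinate, had 9.07, 8.97 and 8.63 FPKM in BMH-21 libraries and 16.4, 16.5 and 17.5 FPKM in DMSO libraries, and fell by 0.85 on the log2 scale (limma adjusted p = 8.44e-08). Sdhb, the iron-sulfur subunit, had 114, 112 and 115 FPKM in BMH-21 libraries and 142, 143 and 147 FPKM in DMSO libraries. It fell by 0.34 (limma adjusted p = 1.21e-05). Under median-ratio (−0.08) and upper-quartile scaling (−0.02) it no longer passed. Sdhc, a membrane anchor, had 148, 148 and 142 FPKM in BMH-21 libraries and 124, 125 and 127 FPKM in DMSO libraries. It rose under every scaling tried, from 0.10 with equal column totals to 0.53 with upper-quartile scaling (main value 0.22, limma adjusted p = 0.000326). Sdhd, the other anchor, had 333, 340 and 330 FPKM in BMH-21 libraries and 341, 350 and 351 FPKM in DMSO libraries. Its groups did not overlap but lay close (log2 fold change −0.05, limma adjusted p = 0.21). Sdhd was called higher with median-ratio scaling (0.20) and upper-quartile scaling (0.27), and lower with equal column totals (−0.17) and quantile normalization (−0.15). The level of Sdhd over that of Sdha, the highest and lowest of the 4 subunits, was 37.6 in BMH-21 and 20.7 in DMSO. The spread of log2 fold changes inside the complex, 1.07, was the widest of the 6 followed.

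Fumarase, which hydrates fumarate to malate, fell nearly as far as Idh2. Fh1 (chromosome 1, 175600374 to 175625635) had 7.93, 8.20 and 7.34 FPKM in BMH-21 libraries and 24.1, 23.6 and 22.03 FPKM in DMSO libraries. The groups were well apart, with a log2 fold change (± SE) of −1.46 ± 0.05 (adjusted p in limma = 7.49e-09), so that its mean was 2.97-fold lower in BMH-21. Between Sdhc and Fh1, which act on consecutive steps, the changes thus ranged from 0.22 to −1.46.

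**Figure D3:**
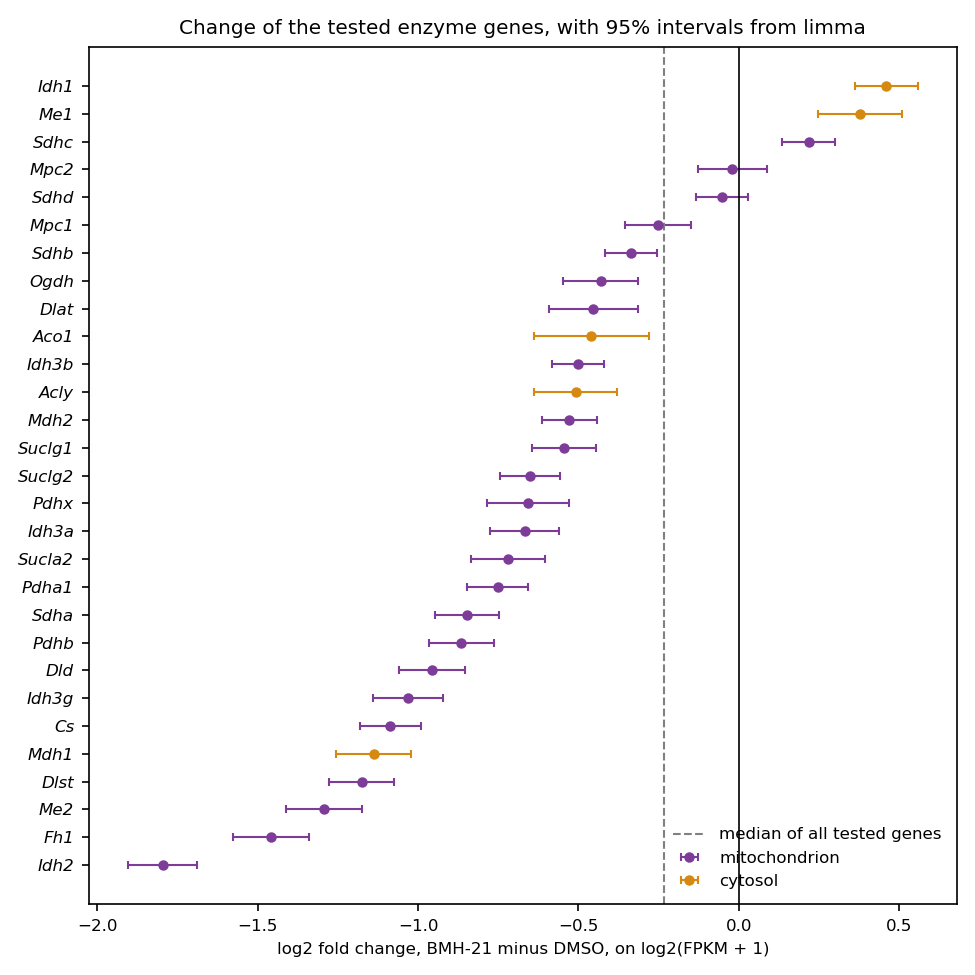
Log2 fold change on log2(FPKM + 1), BMH-21 minus DMSO, of the 29 tested enzyme genes with 95% intervals from limma, coloured by compartment (Idh1 is counted as cytosolic). The dashed line marks the median of all tested genes, −0.23. Only Idh1, Me1 and Sdhc lie above 0 with intervals that leave it out.

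The order of levels shifted with these changes. In BMH-21 the most abundant mRNAs per length were Sdhd, Sdhc, Sdhb, Mdh2 and Idh3b, and in DMSO they were Sdhd, Sdhb, Sdhc, Mdh2 and Idh2. Idh1 ranked 6 of 30 in BMH-21 and 15 in DMSO, and Idh2 ranked 11 in BMH-21 and 5 in DMSO.

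Without rescaling, the 4 tested enzyme genes with the shortest coding sequences changed little. With upper-quartile scaling Sdhc lay at 0.53, Mpc2 at 0.28, Sdhd at 0.27 and Mpc1 at 0.060. The other values of this paragraph are without rescaling. Sdhc, Sdhd, Mpc1 and Mpc2 have coding lengths of 381 to 507 nucleotides (GENCODE M21), and their log2 fold changes ran from −0.25 to 0.22, with 1 called lower and 1 higher. The 25 tested enzyme genes of 600 nucleotides or more had a median of −0.67, with 23 called lower and 2 higher. Over all tested genes with a coding sequence, the median change was 0.11 in the 1313 under 600 nucleotides and −0.28 in the 7894 at or above it. Of the shorter genes 28.0% were called lower and 47.1% higher, and of the longer genes 64.6% and 15.0%. The division at 600 nucleotides was chosen after these values were seen, and no test was made of it. Across genes, which are not independent replicates and share their libraries, Spearman's rho between coding length and log2 fold change was −0.254 over the 29 enzyme genes and −0.284 over 9207 tested genes.

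**Figure D4:**
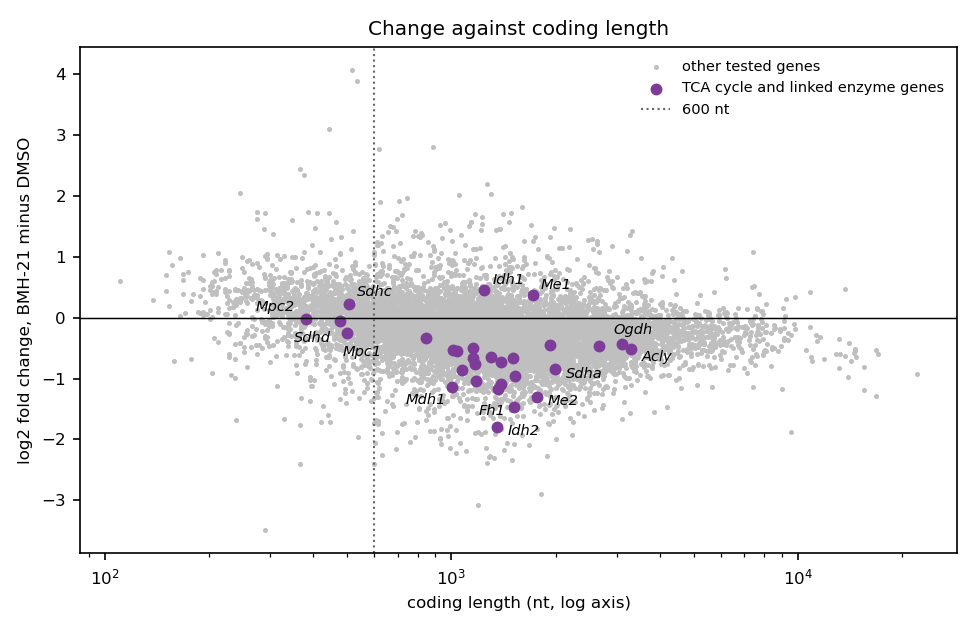
Log2 fold change (BMH-21 minus DMSO) against coding length in nucleotides (log axis) for all tested genes with a coding sequence (grey) and the 29 tested enzyme genes (purple), with a dotted line at 600 nucleotides. The short Sdhc, Sdhd, Mpc1 and Mpc2 lie between −0.25 and 0.22, while Idh2, Fh1 and Me2, of 1356 to 1767 nucleotides, lie lowest.

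Genes that regulate, feed or drain the cycle were followed in 8 lists, of which 65 genes of 80 were tested. Of these, 43 were called lower and 9 higher, or 66.2% and 13.8%, beside 58.4% and 19.9% of all tested genes. These counts rest on the scaling: the lower and higher calls became 31 and 17 by median-ratio scaling, 27 and 19 by scaling to the upper quartile, and 29 and 20 by quantile normalization. Under these 3 scalings at least 1 gene was also called higher in each list, other than the NADPH sources, where this held with quantile normalization alone. Each list held 6 to 11 tested genes, so 1 call can move its share across that of all tested genes, and these shares were not tested. Without rescaling, some lists lay under the 58.4% of all tested genes called lower. These were the carriers (44.4%), the kinases and phosphatases (50%), the complexes sharing Dld (50%) and the assembly factors (55.6%). The others lay above it: the acetyl-CoA list (72.7%), glutamine entry (80%), other TCA and pyruvate enzymes (83.3%) and the NADPH list (87.5%). Of 6 tested pyruvate dehydrogenase kinases and phosphatases, 3 fell, and all 3 were kinases, which switch the complex off. Pdk3 averaged 9.31 FPKM in BMH-21 and 14.8 FPKM in DMSO, Pdk1 averaged 9.74 FPKM in BMH-21 and 14.3 FPKM in DMSO, and Pdk2 averaged 1.65 FPKM in BMH-21 and 3.30 FPKM in DMSO. The phosphatase genes Pdp1, Pdp2 and Pdpr, between 0.975 and 2.51 FPKM on average, did not pass (limma adjusted p = 0.19, 0.21 and 0.16). Pdk4 averaged 0.0051 FPKM in BMH-21 and was listed at 0 in all DMSO libraries. These 4 genes were chosen for mention after their values were seen.

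Of 6 other tested TCA and pyruvate enzymes, 5 fell. Pck2, the mitochondrial carboxykinase that makes phosphoenolpyruvate from oxaloacetate, averaged 1.98 ± 0.23 FPKM in BMH-21 and 10.9 ± 0.18 FPKM in DMSO (SD, n = 3). Its fall of 2.00 on the log2 scale (limma adjusted p = 2.80e-09) exceeded that of any of the 29 enzyme genes. Ldha, which reduces pyruvate to lactate, averaged 221 FPKM in BMH-21 and 392.1 FPKM in DMSO, and Pkm, which makes pyruvate, averaged 189 FPKM in BMH-21 and 324 FPKM in DMSO. Acod1, which makes itaconate from aconitate, was chosen for mention after its values were seen and averaged 3.70 FPKM in BMH-21 and 5.12 FPKM in DMSO (log2 fold change −0.38, limma adjusted p = 0.000204).

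Of 10 tested genes of glutamine, glutamate and aspartate entry, 8 fell and none rose, while 6 or 7 fell and 1 or 2 rose under those 3 scalings. Glul, glutamine synthetase, averaged 4.21 FPKM in BMH-21 and 11.0 FPKM in DMSO (log2 fold change −1.20). Got2 averaged 14.9 FPKM in BMH-21 and 33.6 FPKM in DMSO, and Aldh18a1, which starts proline synthesis from glutamate, averaged 3.60 FPKM in BMH-21 and 8.49 FPKM in DMSO. Of 8 tested genes grouped as other NADPH sources, 7 fell, and NADPH itself was not measured. The mitochondrial folate enzymes Mthfd2, with 36.6 FPKM in BMH-21 and 92.4 FPKM in DMSO, and Mthfd1l, with 1.81 FPKM in BMH-21 and 5.62 FPKM in DMSO, fell by 1.31 and 1.23 on the log2 scale. Pgd of the pentose phosphate pathway averaged 8.21 FPKM in BMH-21 and 14.1 FPKM in DMSO. Idh1 and Me1 rose (log2 fold change 0.46 and 0.38), while Idh2, which is NADP-dependent like Idh1, fell (−1.80), as did these 3 genes. Which of the listed enzymes make NADPH in these cells was not tested.

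Of 9 tested mitochondrial carriers of TCA intermediates, 3 rose and 4 fell, but 5 or 6 rose and 2 fell under the same 3 scalings. Slc25a1, the citrate carrier, had a mean of 108 ± 6.9 FPKM in BMH-21 and 73.5 ± 1.5 FPKM in DMSO (SD, n = 3, log2 fold change 0.55, limma adjusted p = 3.69e-06). The aspartate-glutamate carriers Slc25a12, with 3.94 FPKM in BMH-21 and 7.37 FPKM in DMSO, and Slc25a13, with 2.89 FPKM in BMH-21 and 4.47 FPKM in DMSO, fell. Of 11 tested genes grouped as other users of acetyl-CoA, 8 fell and 2 rose, and 4 to 6 fell and 3 rose under these scalings. The group is mixed, since some of its genes, such as Acss2 and Hadha, belong to reactions that form acetyl-CoA. Acat1, the mitochondrial thiolase, averaged 20.3 FPKM in BMH-21 and 41.6 FPKM in DMSO, Hadha of fatty acid oxidation averaged 2.53 FPKM in BMH-21 and 4.22 FPKM in DMSO, and Acss2, which activates acetate in the cytosol, averaged 0.387 FPKM in BMH-21 and 1.11 FPKM in DMSO.

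Of 9 tested lipoylation and complex assembly factors, 5 fell and 2 rose, against 1 and 4 under each of those 3 scalings. Sdhaf2, which helps attach the flavin to Sdha protein, rose to 13.7 FPKM in BMH-21, against 9.09 FPKM in DMSO. Lias, the lipoate synthase that the dehydrogenase complexes depend on, averaged 6.03 FPKM in BMH-21 and 9.25 FPKM in DMSO. Mcat of mitochondrial fatty acid synthesis averaged 14.2 FPKM in BMH-21 and 17.8 FPKM in DMSO, a call lost under 3 of the 4 other scalings. Of 6 tested genes of the branched-chain and glycine complexes that share Dld, 3 fell and 2 rose, while 1 fell and 2 or 3 rose under them. Bckdha averaged 9.99 FPKM in BMH-21 and 20.0 FPKM in DMSO, and Bckdhb averaged 17.1 FPKM in BMH-21 and 21.4 FPKM in DMSO, again with a call lost under 3 of the 4 other scalings. Gcsh, the lipoyl carrier of glycine cleavage, rose to 96.6 ± 1.9 FPKM in BMH-21, against 58.7 ± 0.17 FPKM in DMSO (SD, n = 3, log2 fold change 0.71, limma adjusted p = 6.02e-08).

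**Figure D5:**
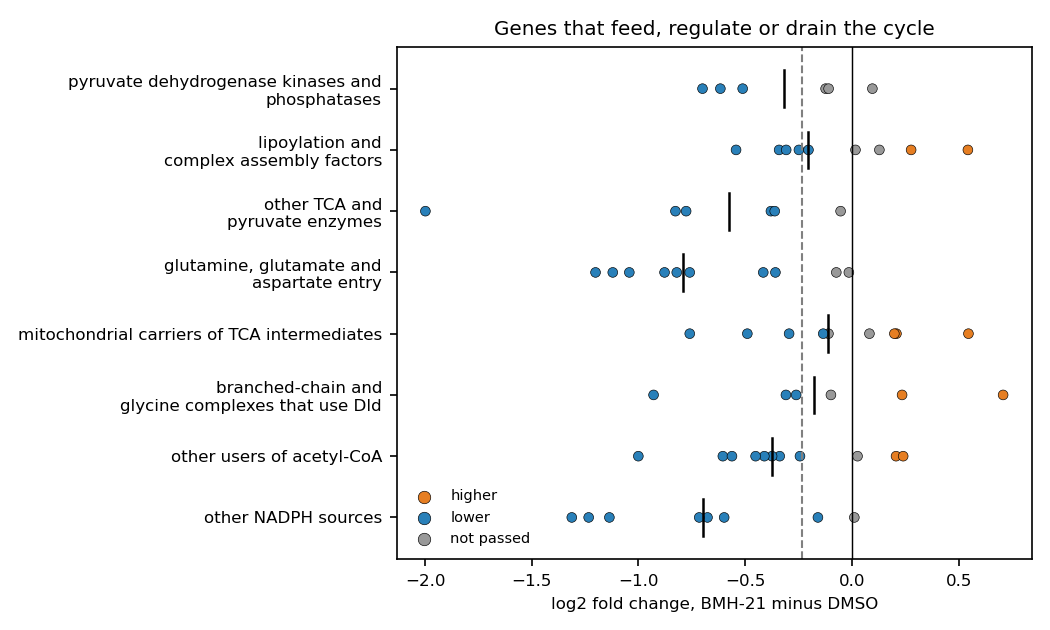
Log2 fold change (BMH-21 minus DMSO) of each tested gene in the 8 lists around the cycle, coloured by call, with a vertical bar at each list's median and a dashed line at the median of all tested genes (−0.23). The medians of the glutamine and NADPH lists lie at −0.79 and −0.70, and that of the carriers at −0.11.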

How the data were processed

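RNA from polysome fractions was sequenced in 6 libraries, after oligo-dT enrichment per the labels' protocols. Trimmomatic 0.38, HISAT2, SAMtools and the mm10 build were named per the submitters' processing notes. For the counter, the normaliser and the annotation, the name is not given in the sources used here. The deposited table holds 1 column per library, and its unit was read as FPKM from the values. DMSO replicate 2 is labelled polyadenylated RNA and the other 5 libraries total RNA. FPKM are shares of a library, so RNA per cell is not measured, and reads shared with pseudogenes or overlapping genes leave single values uncertain.

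Depth was estimated from steps between low values of single-transcript genes: 75.4% to 77.5% fell within 0.01 of whole reads, at most 20, too few to recover counts. Values were transformed as log2(FPKM + 1), which understates changes of low genes. The tested genes reached 1 FPKM in 3 or more libraries. The model was fitted in limma 3.58.1 (R 4.3.3) with the trend option. On simulated data for this comparison (50 of 9748 genes changed at each size), 58% of 1.2-fold, 92% of 1.5-fold and 100% of 2-fold changes were recovered, with 5 calls among 9548 unchanged genes. Library ratios were compared by exact permutation, without a pseudocount. The genes, lists and tests were chosen with earlier results of these data known. Named genes were the 30 enzyme genes, both genes of each pair and, of each list, up to 3 tested genes with the smallest p. Positions and lengths came from GENCODE M21 on GRCm38, the assembly of mm10, with the transcript of longest coding sequence, and 97.3% of genes matched. Replicate numbers did not pair libraries across groups (correlations of same-numbered deviations −0.112 to −0.0638). P-values measure the spread between these libraries, which may be technical. Some genes that the lists and pairs cover are not reported here.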

Additional observations from a re-analysis of the deposited data

How the results depend on the processing

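Of the 29 tested enzyme genes, 22 kept their direction and their side of the threshold under every alternative run that could test them. The other 7 were Aco1, Ogdh, Dlat, Sdhb, Sdhd, Mpc1 and Mpc2, and they moved with scaling. With median-ratio scaling Mpc2 turned to 0.22 and Sdhd to 0.20, and 5 enzyme genes were called higher. With upper-quartile scaling Mpc1 turned to 0.060, Mpc2 to 0.28 and Sdhd to 0.27, with 5 called higher. With quantile normalization Mpc2 turned to 0.20. The near-0 value of Mpc2 also changed sign without BMH-21 replicate 1 (0.0021) and without DMSO replicate 1 (0.015), within a range over left-out libraries of −0.049 to 0.015. Counts over all genes, higher and lower, became 3477 and 3747 with median-ratio scaling, 3873 and 3294 with upper-quartile scaling (all-gene median 0.028), and 3517 and 3498 with quantile normalization (all-gene median 0.0032). In the lists around the cycle the higher calls became 17, 19 and 20 under these 3 scalings, and lower calls became 27 with upper-quartile scaling. A filter of 5 FPKM tests fewer genes and gave 5040 calls, 3465 of them lower, and 28 lower calls in the lists. Without the filter Pcx was called lower (log2 fold change −0.13, limma adjusted p = 0.0356).

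All 6 pair differences kept their sign under a pseudocount of 1, quantile normalization and each left-out library. With the replicate block, which the data did not show to pair the libraries, calls were 7502 over all genes and again 24 lower and 3 higher among the enzyme genes. DMSO replicate 3 as sole control was added after the data were seen, with the lone library assumed to vary like the BMH-21 group. It changed no call of an enzyme gene.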
